A study of Mus musculus with 2 samples.

Results

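The genes described here encode the solute carriers of CD4 T cells: 97 genes whose symbol starts with Slc and a family number and whose level was at least 10 CPM. CPM is the number of UMIs (unique molecular identifiers, 1 per captured mRNA molecule) of a gene out of every 1000000 UMIs. The level was taken over the 21236 barcodes that passed a filter (500 genes or more, less than 10% of UMIs from mitochondrial genes), and Slc2a1, Slc2a3, Slc25a20 and Slc40a1 were left out by the rule. The 97 genes were found among 55487 genes in the library, of which 383 carry such a symbol, 326 of those with at least 1 UMI, and 7837 genes of any kind reached 10 CPM. Of the 97, 92 were counted as carriers, the heavy chain Slc3a2 among them, and 5 are only named after one (Slc4a1ap, Slc9a3r1, Slc9a3r2, Slc7a6os and the pseudogene Slc2a4rg-ps). Members were thus chosen by their measured level, which is a description and no finding. Just inside the threshold were Slc7a5 at 10.1 CPM and Slc44a1 at 10.2 CPM, and just outside it Slc30a1 at 9.87 CPM, Slc2a8 at 9.69 CPM and Slc28a2b at 9.68 CPM.

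The cells came from the visceral adipose tissue (VAT) and the spleen of C57BL/6 Foxp3.Cre-YFP mice, in which Foxp3 drives Cre in regulatory T cells (Tregs). The mice were bmal1WT or bmal1KO in Tregs (Bmal1, encoded by Arntl, drives the core circadian clock), so that by design other cells keep the gene, and were sampled at ZT0 or ZT12, zeitgeber times counted in hours after lights on; the labels give no age, and all groups share the Foxp3.Cre-YFP strain. Per the labels, 34000 VAT and 32000 splenic CD4 T cells were sorted, tagged with hashtag antibodies by genotype, time and tissue, and pooled into 1 single-cell 3′ library. The hashtags in the files carry numbers only, so tissue, genotype and time cannot be told apart here: no hashtag was assigned to any of them, each hashtag has its own values, and no test between them was made.

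Solute carriers are membrane proteins that move small molecules across the plasma membrane or the membranes of mitochondria, lysosomes, the Golgi and other organelles, either along their own gradient or coupled to an ion. In T cells, amino acid carriers feed protein synthesis and the growth-controlling kinase mTORC1, and carriers of the mitochondrial inner membrane exchange ATP, phosphate, metabolites and cofactors with the cytosol. Nucleoside carriers supply the salvage of bases for DNA and RNA and end extracellular adenosine signals, while zinc, iron, copper and magnesium carriers set the metal content of cytosol and organelles.

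The expression library held 22960 barcodes and 96923402 UMIs, and 22952 of its barcodes were also in the hashtag library. Demultiplexing left 13599 cells with a single hashtag, 1360 to 3488 per hashtag, with medians of 2820 to 3773 UMIs per cell. Marker gates kept 12864 of them as T cells: 2972 naive, 1832 Th1, 2089 ST2 Treg (Il1rl1, the IL-33 receptor, with a Treg gene), 379 other Foxp3 Treg, 156 NK-receptor, 199 type 17, 193 follicular helper (Tfh), 259 proliferating and 4785 T cells in no gate. Cd4 lay between 134 and 264 CPM in the gates Cd8a between 0 and 3.39 CPM, and Cd3e between 463 and 803 CPM. The ST2 Treg gate had 676 CPM of Il1rl1 and 55 CPM of Foxp3, against 352 CPM of Foxp3 in the other Foxp3 Treg gate, so most of its Treg assignment rests on Ikzf2, Ctla4 or Klrg1. Its 69 cells of hashtag 5 stood apart, with 65.2 CPM of the tissue-repair factor Areg against 920.0 to 1847 CPM in hashtags 1 to 4, and hashtag 6 gave only 47 such cells and was not used for this gate.

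In T cells the members were unequal. Over all barcodes they made up 0.368% of UMIs, with a median of 19.5 CPM and a range of 10.1 to 493 CPM; 53 lay under 20 CPM and 7 at 100 CPM or more. Three-prime UMI counting gives 1 count per captured molecule, so levels of different genes were set side by side without a correction for transcript length. Differences between genes in capture or in read assignment were not corrected. Slc25a3, which brings phosphate into mitochondria, was at 488 CPM in gated T cells, the neutral amino acid carrier Slc38a2 at 363 CPM, and the ADP/ATP exchanger Slc25a5 at 302 CPM; over all barcodes these 3 genes held 31.7% of the members' UMIs. Among the other groups the leading genes were Slc50a1 for sugars (113 CPM), Slc44a2 for choline (80.7 CPM), the sodium bicarbonate cotransporter Slc4a7 for ions (64.1 CPM), Slc20a1 for phosphate (44.5 CPM) and Slc35b3 for nucleotide sugars and sulfate donors (33.2 CPM). Slc28a2, which takes up purine nucleosides with sodium, was at 32.7 CPM, the monocarboxylate family member Slc16a6 at 22.5 CPM, the zinc carrier Slc30a5 at 19.7 CPM, Slc49a4 at 17.03 CPM and the riboflavin carrier Slc52a2 at 16.7 CPM. The most abundant of the 5 genes that encode no carrier was Slc9a3r1, a scaffold protein of the membrane cortex, at 131 CPM. Slc28a2 has a near-identical copy, Slc28a2b, and reads could be split between both, so the values of Slc28a2 are uncertain.

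By family and substrate, 23 members belong to the mitochondrial carrier family Slc25 and 14 to the nucleotide sugar family Slc35. Another 13 were grouped under amino acids or peptides, 13 under metal ions, 9 under other ions, 5 under nucleosides, nucleobases or nucleotides and 4 under sugars. The remaining carriers were grouped under monocarboxylates, lipids, vitamins, phosphate or other substrates. Groups mainly follow the family number, so a member need not carry its group's substrate, as with the heavy chain Slc3a2 under amino acids. In gated T cells 88 of the 97 reached 10 CPM and 9 did not. Slc9a3r2 was at 2.27 CPM in T cells and at 581 CPM in the 156 endothelial cells of the sort, Slc43a3 at 6.32 CPM in T cells and at 313 CPM in 48 stromal cells, Slc44a1 at 5.85 against 171 CPM in stromal cells, and the lactate carrier Slc16a1 at 9.03 against 150.3 CPM in stromal cells. Gated T cells held 8.35%, 17.1%, 27.03% and 39.8% of the UMIs of these 4 genes, singlets outside the T cell gate 49.7%, 24.5%, 17.6% and 11.4%, and the rest lay in doublets and barcodes without a hashtag call. The other 5 under 10 CPM (Slc15a2, Slc35b4, Slc7a5, Slc12a9 and Slc25a25) lay between 9.12 and 9.92 CPM in T cells.

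Promoter sequences are shown for 2 members that were at least 2-fold above naive cells (Slc25a24 and Slc36a1), 1 that was lower in ST2 Treg than in Th1 cells (Slc20a1) and a carrier whose level spread widely over hashtags (Slc38a2). The letters are the 250 bases before the transcription start in the RefSeq table of GRCm38.p6, the assembly of mm10, written 5′ to 3′ on the gene's strand. Capitals mark matches to any of 6 motifs searched on both strands. Slc25a24 (chr3:109122899-109123148, plus strand), an ATP-Mg/phosphate exchanger of mitochondria, held none of them.
Slc25a24: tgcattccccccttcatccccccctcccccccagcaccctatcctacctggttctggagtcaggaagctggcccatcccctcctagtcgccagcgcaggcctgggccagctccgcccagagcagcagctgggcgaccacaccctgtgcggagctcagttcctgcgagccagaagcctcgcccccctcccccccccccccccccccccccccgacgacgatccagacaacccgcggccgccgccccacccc
Slc36a1 (chr11:55204090-55204339, plus strand), a proton-coupled exporter of small amino acids from lysosomes, held 1 E-box, which began 31 bases before the start used for this window. The RefSeq entry of the gene begins earlier, at base 55204322, so the last bases of the window lie within that entry.
Slc36a1: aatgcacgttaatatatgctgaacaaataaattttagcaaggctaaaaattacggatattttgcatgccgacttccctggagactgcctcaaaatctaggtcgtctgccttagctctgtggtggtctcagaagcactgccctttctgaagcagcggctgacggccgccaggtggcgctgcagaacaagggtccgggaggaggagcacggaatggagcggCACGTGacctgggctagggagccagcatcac
Slc20a1 (chr2:129198523-129198772, plus strand), which takes up phosphate with sodium, held 2 E-boxes, 175 and 22 bases before the start, and 1 Runx match 77 bases before it.
Slc20a1: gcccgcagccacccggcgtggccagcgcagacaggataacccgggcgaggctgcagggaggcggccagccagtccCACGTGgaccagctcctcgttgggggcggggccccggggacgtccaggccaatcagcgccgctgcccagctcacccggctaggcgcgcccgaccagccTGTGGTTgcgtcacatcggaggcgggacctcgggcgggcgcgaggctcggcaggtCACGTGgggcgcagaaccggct
Slc38a2 (chr15:96699729-96699978, minus strand) held no match.
Slc38a2: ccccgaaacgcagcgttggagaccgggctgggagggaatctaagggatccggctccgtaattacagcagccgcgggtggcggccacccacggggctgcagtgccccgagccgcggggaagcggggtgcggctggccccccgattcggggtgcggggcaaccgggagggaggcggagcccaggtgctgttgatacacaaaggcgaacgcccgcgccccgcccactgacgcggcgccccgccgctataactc

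Of the 97 members, 72 had a window in the table, out of 27025 promoters in all. The 27025 were not filtered by level, unlike the members, so the shares below are of unlike sets. Shares among the 7837 genes at 10 CPM or more were not computed. The E-box CACGTG was in 10 of the 72 (13.9%) and in 6.05% of all promoters. The AP-1 motif TGANTCA was in 6.94% of member windows against 6.87% of all, the cyclic AMP element TGACGTCA in 1.39% against 1.62%, and the ATF4 element TGATGNAA in 4.17% against 3.53%. The Runx motif TGTGGTT was in 1.39% against 4.46%, and the T-box motif AGGTGTGA in 0 of 72 against 1.14% of all. No motif contains another, and a match is a description of letters, not of a bound site.

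Naive cells had the lowest summed level of the members among the gates. Over all hashtags the 97 members summed to 2973 CPM in naive cells (95% Poisson interval 2942 to 3003), against 3870 CPM in Th1 cells (3821 to 3920), 3805 CPM in ST2 Treg and 4007 CPM in proliferating cells. Intervals here cover counting error only. Over all genes at 10 CPM or more, the median log2 ratio to naive cells, taken within hashtags, was 0.21 for Th1 and 0.16 for ST2 Treg. With median-of-ratios scaling in place of UMI totals it was 0.02 and 0.01. The sums were not taken with that scaling, so the part of this shift of all genes in them was not tested. The amino acid carriers summed to 621 CPM in naive, 1003 CPM in Th1, 927 CPM in ST2 Treg and 691 CPM in Tfh cells, and the mitochondrial carriers to 1165 CPM in naive, 1469 CPM in ST2 Treg and 1876 CPM in proliferating cells. Naive was the lowest of 8 gates for 30 members (30.9%, beside 32% of all 7837 genes), and 26 of them (26.8%, beside 28.4%) had intervals of the highest and lowest gate apart, so these counts are near the background. Proliferating cells were the lowest for 22 (22.7%, beside 18.6%). The highest gate was NK-receptor cells for 22 members, 8 of them with intervals apart (8.25%, beside 8.28% of all genes), Tfh for 18, 11 apart (11.3% beside 12%), ST2 Treg for 17, 14 apart (14.4% beside 9.28%), and proliferating cells for 12, 8 apart (8.25% beside 18.6%). Naive cells were mostly of hashtags 5 and 6 (1409 and 984 of 2972) while ST2 Treg were mostly of hashtags 1 to 4, so gate and hashtag cannot be told apart in levels summed over hashtags.

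**Figure D1:**
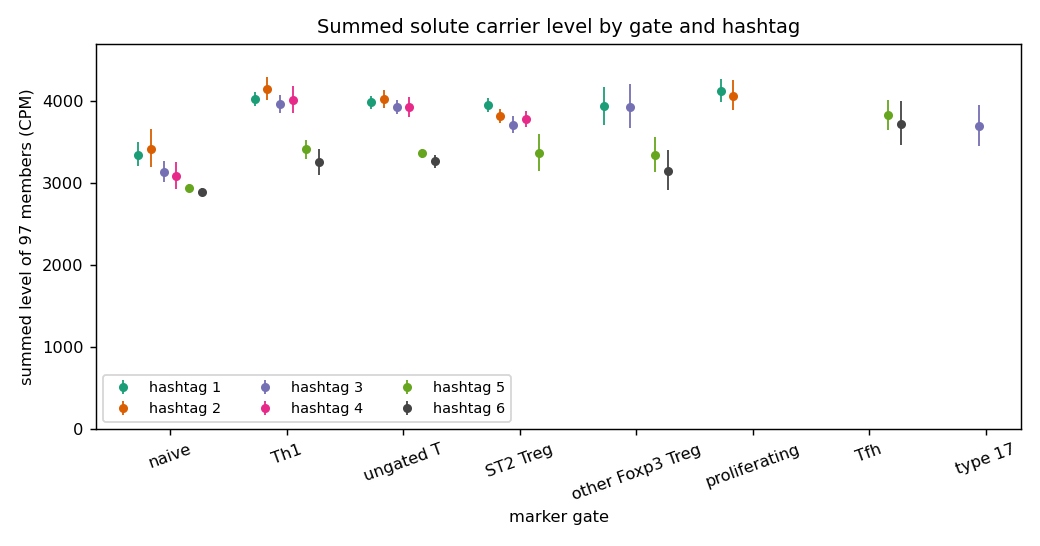
Summed level of the 97 members in CPM for each gate, 1 point per hashtag with at least 50 cells, with exact 95% Poisson bars. In naive cells the points lie between 2891 and 3421 CPM and in Th1 cells between 3258 and 4155 CPM, with hashtags 5 and 6 lowest in both.

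The summed level also differed between hashtags within a gate. In Th1 cells it was 4028, 4155, 3963, 4022, 3413 and 3258 CPM in hashtags 1 to 6, and in naive cells 3351, 3421, 3139, 3089.6, 2943 and 2891 CPM. Hashtags 5 and 6 had the lowest values in both gates. Gene by gene, of 20 members at 30 CPM or more in Th1 cells, hashtag 6 was the lowest for 10 (50%, beside 29.2% of all genes) and hashtag 5 for 5 (25% beside 18.3%). In naive cells hashtag 6 was the lowest for 4 of 18 (22.2% beside 19.5%) and hashtag 5 for 2 (11.1% beside 7.49%). Hashtag 3 was lowest there most often, for 5 (27.8% beside 19.8%). The sums of Th1 cells were above those of naive cells within each of the 6 hashtags. The summed level of 12 early response and heat shock genes (Fos, Jun, Hspa1a and others), which tissue dissociation is known to induce, moved with these values: it was 5313, 5754, 4256, 5084, 1563 and 1485 CPM in Th1 cells and 3009, 2927, 2136, 2824, 1297 and 1234 CPM in naive cells. Its part in the results was not tested.

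**Figure D2:**
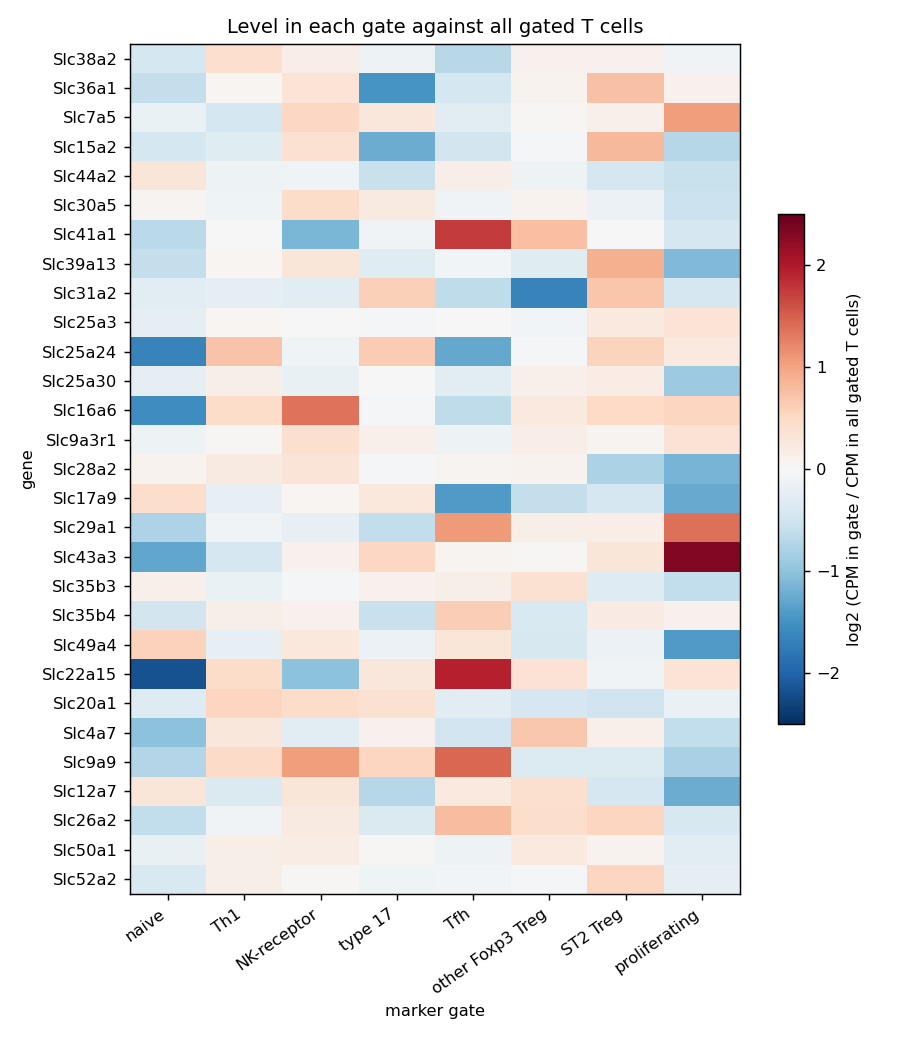
Level of 29 members in 8 gates as the log2 ratio of the CPM in the gate to the CPM in all gated T cells, summed over hashtags; shown are members past 2-fold in any comparison and the leading gene of each group. Slc22a15 and Slc25a24 are lowest in naive cells, and Slc43a3 is highest in proliferating cells.

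Comparisons between gates were made within hashtags. For each gene the log2 ratio of CPM was taken in every hashtag with at least 50 cells on both sides, with 0.5 UMIs added, and its median over hashtags is printed with the lowest and highest value. A gene was called when that median was at least 2-fold either way with the same sign in every hashtag used. With 1 library and hashtags of unlabelled origin this is a rule of size, not a test. Where values of gates are said not to overlap, counting error is left out, and many values of single hashtags rest on few UMIs. In all, 20 of the 97 members (20.6%) were called in any of 6 comparisons, beside 23% of all 7837 genes.

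In ST2 Treg, 7 members were called higher than in naive cells and 0 lower, in hashtags 1 to 5 (2042 against 1988 cells). Over all 7837 genes at 10 CPM or more the same rule called 7.01% higher and 1.53% lower, so the members' count is near the background. The members' median log2 ratio was 0.18, beside 0.16 over all genes. The 7 were spread over the groups, with 2 of 23 mitochondrial carriers, 1 of 13 amino acid carriers, 1 of 13 metal carriers, 1 of 9 ion carriers, and none of 14 nucleotide sugar carriers or 5 nucleoside carriers.

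Slc25a24, which loads adenine nucleotides into mitochondria, was at 37.4, 35.7, 36.7, 46.3 and 15.3 CPM in ST2 Treg of hashtags 1 to 5 and at 8.22, 19.8, 9.32, 11.5 and 8.84 CPM in naive cells. The ST2 Treg level was higher in every hashtag and lowest in hashtag 5, where it did not reach the naive level of hashtag 2, and the median log2 ratio was 1.88 (0.72 to 2.05).

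Slc36a1, the lysosomal amino acid exporter whose promoter is shown above, was at 16.98, 13.9, 20.2, 21.9 and 15.3 CPM in ST2 Treg and at 3.29, 3.96, 5.32, 0 and 7.62 CPM in naive cells. The groups did not overlap, and the median log2 ratio was 1.78 (1.16 to 4.27). Hashtag 4 had no UMI of Slc36a1 in naive cells. With 3 counts taken as the limit for a count of 0 (6.92 CPM), the ST2 Treg value was 3.17 times that limit. The counting error of the ST2 Treg value is left out of this ratio. Slc39a13, a zinc carrier of the secretory pathway, was at 26.3, 19.3, 17.3, 16.6 and 15.3 CPM against 8.22, 7.91, 7.99, 2.31 and 7.10 CPM. Its groups did not overlap either, and its median log2 ratio was 1.26 (0.98 to 2.29). For neither gene is the lack of overlap beyond counting error: in ST2 Treg of hashtag 5 even 19.2 CPM (Slc52a2) had an interval of 6.23 to 44.8 CPM.

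Slc16a6 was at 43.7, 30.7, 21.6, 28.5 and 19.2 CPM in ST2 Treg and at 14.8, 0, 13.3, 6.92 and 6.76 CPM in naive cells. Every ST2 Treg value lay above every naive value, with a median log2 ratio of 1.62 (0.65 to 3.97). In ST2 Treg of hashtag 5 a level of 19.2 CPM has a counting interval of 6.23 to 44.8 CPM, which covers the highest naive value. In hashtag 2 the naive cells had 0 UMIs (up to 11.9 CPM allowed). The ST2 Treg value there was 2.59 times that limit, with its own counting error left out. The sulfate carrier Slc26a2 was at 33.5, 34.2, 30.2, 36.2 and 23.01 CPM against 11.5, 19.8, 11.98, 16.1 and 16.5 CPM, a median log2 ratio of 1.08 (0.59 to 1.45). The groups of Slc26a2 did not overlap, but its median fell under 2-fold when hashtag 1, 3 or 4 was left out (0.87 to 0.97).

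Slc22a15, of the organic cation and carnitine transporter family, had uneven ratios, with 17.4, 7.92, 10.8, 13.6 and 23.01 CPM in ST2 Treg and 1.64, 3.96, 2.66, 11.5 and 2.95 CPM in naive cells. The median log2 ratio was 1.75, but it ran from 0.14 in hashtag 4 to 3.04 in hashtag 5. Naive values rest on few UMIs in hashtags 1 to 4: 3 counts make 11.9 CPM in hashtag 2 and 6.92 CPM in hashtag 4. Among members under the 2-fold line, the glutamine carrier Slc1a5 was above naive cells in all 5 hashtags (median log2 ratio 0.73, 0.08 to 1.18), and the choline carrier Slc44a2 was below them in all 5 (-0.66, -1.29 to -0.34). The early response genes summed to 13728, 17658, 11402, 16723 and 1618 CPM in ST2 Treg of hashtags 1 to 5, above the naive values given before. Their part in these ratios was not tested.

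In Th1 cells, 4 members were called higher than in naive cells and 0 lower, in all 6 hashtags (1832 against 2972 cells), where 3.92% of all genes were called higher and 0.766% lower. The median log2 ratio was 0.25 for the members and 0.21 for all genes. The naive cells are those of the ST2 Treg comparison, so the comparisons are not independent. Slc22a15 was at 21.96, 20.9, 14.6, 19.9, 16.6 and 17.5 CPM in Th1 and at 1.64, 3.96, 2.66, 11.5, 2.95 and 2.58 CPM in naive cells. The groups did not overlap, and its median log2 ratio of 2.33 (0.71 to 3.17) was the largest of the 97 members in this comparison.

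Slc25a24 was at 47.9, 60.4, 42.9, 56.5, 14.5 and 21.4 CPM in Th1 and at 8.22, 19.8, 9.32, 11.5, 8.84 and 5.62 CPM in naive cells. Hashtags 5 and 6 were the lowest of the Th1 cells, and the median log2 ratio was 2.04 (0.75 to 2.41). Slc16a6 was at 38.4, 39.4, 28.3, 19.9, 22.9 and 21.4 CPM against 14.8, 0, 13.3, 6.92, 6.76 and 7.49 CPM, with no overlap and a median log2 ratio of 1.46 (1.04 to 4.34). Slc9a9, a sodium/proton exchanger of endosomes, was at 31.9, 45.6, 33.2, 49.8, 25.96 and 29.2 CPM against 18.1, 15.8, 17.3, 13.8, 17.7 and 10.3 CPM. Slc9a9 was higher in Th1 cells in every hashtag without overlap, with a median log2 ratio of 1.14 (0.58 to 1.76), but of 0.90 without hashtag 2, 4 or 6.

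Of the 13 amino acid carriers, 4 lay above naive cells in all 6 hashtags, none of them at 2-fold, beside 21.8% of all genes in all 6. The median log2 ratio of the 13 was 0.15, under the 0.21 of all genes. Among the 4, Slc3a2, the heavy chain that brings several amino acid carriers to the cell surface, had a median log2 ratio of 0.69 (0.17 to 1.42), and the alanine and glutamine carrier Slc38a2 one of 0.43 (0.11 to 0.69). Slc20a1 had a median log2 ratio of 0.59 (0.16 to 0.87) in the same comparison. Slc44a2 was below naive cells in all 6 hashtags (-0.47, -0.92 to -0.16). With median-of-ratios scaling in place of UMI totals the median log2 ratio over all genes against naive cells moved from 0.16 to 0.01 for ST2 Treg, from 0.21 to 0.02 for Th1 and from 0.27 to 0.05 for other Foxp3 Treg, so the smaller ratios of these paragraphs are to be read against that shift.

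In other Foxp3 Treg, 4 members were called higher than in naive cells and 1 lower, in hashtags 1, 3, 5 and 6 (301 against 2770 cells), against 6.66% of all genes higher and 0.74% lower. The median log2 ratio was 0.35 for members and 0.27 for all genes, and the naive cells are again shared. Slc41a1, which moves magnesium, was at 20.4, 23.7, 24.1 and 33.7 CPM against 8.22, 5.32, 10.1 and 7.73 CPM in naive cells, a median log2 ratio of 1.74 (1.29 to 2.20) with no overlap. Slc26a2 was at 47.5, 37.9, 17.2 and 38.5 CPM against 11.5, 11.98, 16.5 and 14.1 CPM (1.60, 0.19 to 1.995), with hashtag 5 close to its naive cells. In that hashtag haemoglobin genes summed to 19283 CPM in other Foxp3 Treg, against 142 to 171 CPM in the other 3 hashtags used, and its part in the results was not tested. In naive cells, which serve in 3 comparisons, they summed to 9055 CPM in hashtag 3, with 53.3% of these UMIs in 1 cell, and to 133 to 322 CPM in the other 5. Without hashtag 3 the members called higher and lower were 8 and 0 in ST2 Treg, 4 and 0 in Th1 and 8 and 3 in other Foxp3 Treg, and the named members stayed past 2-fold except Slc26a2 in ST2 Treg (0.87). The share over all genes was not computed without hashtag 3, so these counts have no background beside them.

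Slc22a15 had 20 UMIs in these Tregs and 31 in the naive cells, at a ratio of 7.33 (95% counting interval 3.96 to 13.3), and its median log2 ratio was 2.66. Slc36a1 was called on 12 UMIs against 85, a ratio of 1.60 whose counting interval (0.797 to 2.95) includes no difference. Slc17a9, which fills vesicles with ATP, was the member called lower: it was at 10.2, 23.7, 10.3 and 28.9 CPM against 32.9, 50.6, 29.8 and 33.02 CPM, with a median log2 ratio of -1.14 (-1.51 to -0.08). Slc17a9 was close to naive cells in hashtag 6, and its median was -0.98 without hashtag 1 or 5. Slc4a7 was at 145.8, 104 (hashtag 3), 55.1 and 86.7 CPM in these Tregs, above the naive cells of each hashtag, with a median log2 ratio of 0.99 (0.75 to 2.04), just under the line.

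**Figure D3:**
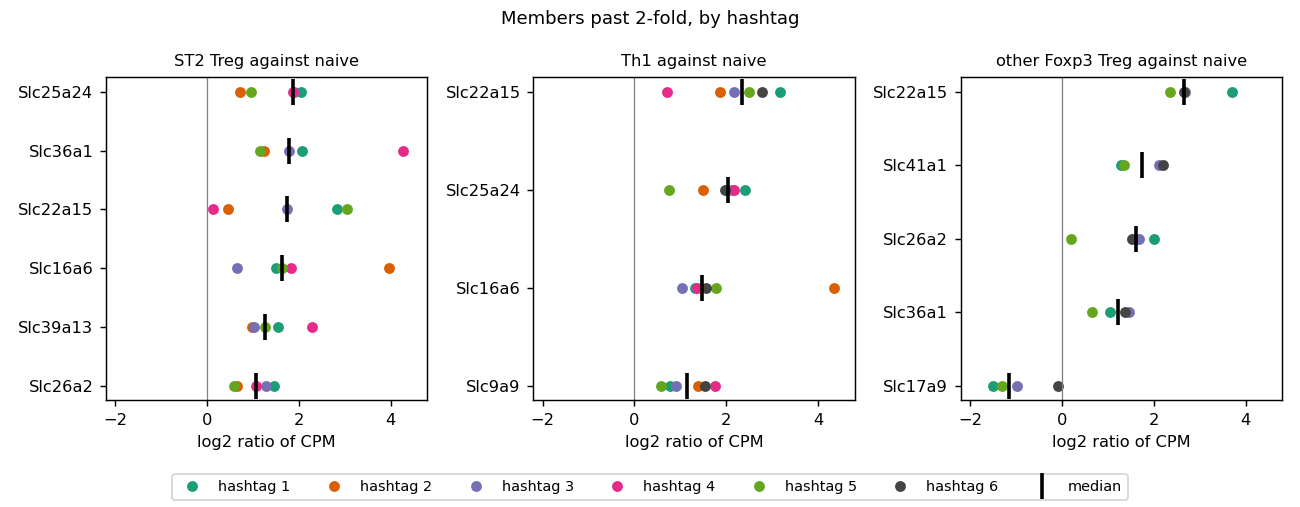
Log2 ratio of CPM against naive cells for members past 2-fold, 1 point per hashtag, with the median as a bar, for ST2 Treg, Th1 and other Foxp3 Treg. The points of each gene lie on 1 side of 0, as the rule for a call requires. The point of Slc16a6 in Th1 cells of hashtag 2, at 4.34, rests on 0 UMIs in naive cells.

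Fewer members were called between ST2 Treg and Th1 cells than between ST2 Treg and naive cells. The same held for all genes, so this is no result about the members. In hashtags 1 to 5 (2042 against 1697 cells), 0 members were called higher in ST2 Treg and 2 lower, where 2.07% of all genes were called higher and 1.38% lower; the median log2 ratio was 0.03 for members and -0.03 for all genes. Slc20a1, the phosphate carrier with 2 E-boxes in the promoter shown above, was at 32.7, 28.7, 35.3, 30.8 and 30.7 CPM in ST2 Treg and at 68.4, 84.99, 59.9, 73.1 and 52.97 CPM in Th1 cells. The groups did not overlap, and the median log2 ratio was -1.06 (-1.56 to -0.71). Slc28a2 was at 18.3, 18.3, 17.996, 17.8 and 30.7 CPM against 42.4, 41.9, 34.01, 36.5 and 37.4 CPM, a median log2 ratio of -1.05 (-1.21 to -0.22). Its highest ST2 Treg value, in hashtag 5, rests on few UMIs: 34.5 CPM there (Slc25a45) had a counting interval of 15.8 to 65.5 CPM. Both stand close to the line: without hashtag 2 the medians were -0.91 for Slc20a1 and -0.98 for Slc28a2, and neither was called.

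Between ST2 Treg and other Foxp3 Treg, in hashtags 1, 3 and 5 (1054 against 241 cells), 2 members were called higher in ST2 Treg and 0 lower, against 1.39% and 1.52% of all genes. The median log2 ratio was -0.12 for members and -0.05 for all genes. Slc35b4, a Golgi carrier of nucleotide sugars, had 45 UMIs against 3, at a ratio of 2.98 with a counting interval of 0.958 to 15.004; in hashtags 3 and 5 both gates lay under the limit that a count of 0 allows, so no fold is given there. Slc31a2, a copper carrier, had 72 UMIs against 4, at a ratio of 3.58 (1.34 to 13.5). Without hashtag 3 the median log2 ratio of Slc35b4 was 0.91, and without hashtag 5 that of Slc31a2 was 0.91.

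Proliferating cells had 3 members called higher and 7 lower than all other T cells, in hashtags 1 and 2 (134 against 4186 cells), beside 5.13% of all genes called higher and 6.15% lower. The median log2 ratio was -0.08 for members and -0.01 for all genes. Slc43a3, which passes purine nucleobases in both directions, was at 37.1 and 37.6 CPM in proliferating cells against 6.57 and 7.64 CPM, a median log2 ratio of 2.41. Markers of stromal cells, the type with the highest level of Slc43a3, summed to 18.8 to 21.01 CPM in the proliferating cells of these hashtags. In Th1 cells of hashtags 1 and 2 they summed to 37.9 and 29.6 CPM. The T cell gate itself limits 1 of these markers, Col3a1, so low sums are in part set by the gate. The part of stromal RNA in the level of Slc43a3 was not tested. Slc29a1, the equilibrative nucleoside carrier of the plasma membrane, was at 53.1 and 66.9 CPM against 21.8 and 27.3 CPM (1.30). Slc7a5, the leucine carrier that pairs with Slc3a2, was at 19.8 and 18.8 CPM against 7.88 and 9.61 CPM (1.20), while Slc3a2 itself had a median log2 ratio of -0.45.

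Both ADP/ATP exchangers came close to the line in proliferating cells. Slc25a5 had a median log2 ratio of 0.93 (0.83 to 1.03) and Slc25a4 one of 0.89 (0.88 to 0.91), and the arginine carrier Slc7a1 one of 0.89 (0.81 to 0.96). The 7 members called lower rest on 4 to 10 UMIs each in proliferating cells. Slc28a2 was at 7.41 and 6.27 CPM against 33.9 and 27.5 CPM, a ratio of 0.221 with a counting interval of 0.100 to 0.424. Slc9a9 had a ratio of 0.274 (0.130 to 0.509), and the peptide carrier Slc15a2 one of 0.25 (0.0673 to 0.653). The potassium chloride cotransporter Slc12a7, Slc39a13, Slc25a30 and Slc17a9 had median log2 ratios of -1.62, -1.93, -1.28 and -1.23.

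Proliferating cells were deeper, with a median of 8257 UMIs against 3172 over all gated T cells. With all 6 hashtags pooled, a choice made after seeing the data, Slc43a3 (2.66) and Slc29a1 (1.51) were above the other T cells by more than 2-fold, while Slc15a2 (-0.69), Slc9a9 (-0.82) and Slc25a30 (-0.92) fell short of 2-fold and Slc39a13 was at -1.09. Cells of 2000 to 6000 UMIs held only 68 proliferating cells and were compared with hashtags pooled, so depth and pooling changed together. There the log2 ratios of Slc39a13, Slc15a2 and Slc9a9 were 0.20, 0.0108 and 0.33, and the median over all genes was 0.23, against 0.05 with all cells pooled. With hashtag 1 left out and the other 5 pooled, the log2 ratio was -0.85 for Slc28a2 and -0.47 for Slc39a13.

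**Figure D4:**
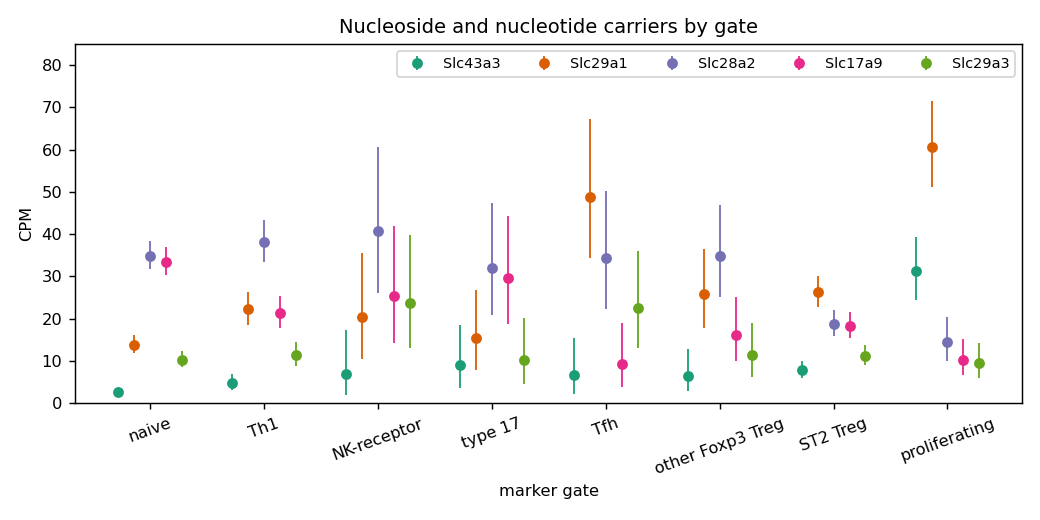
Levels in CPM of the 5 carriers of nucleosides, nucleobases and nucleotides in 8 gates, summed over hashtags, with exact 95% Poisson bars. Slc43a3 and Slc29a1 are highest in proliferating cells (31.2 and 60.7 CPM), where Slc28a2 is at 14.5 CPM.

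The carriers of the nucleoside group differed in their order of gates. Slc29a1 was at 60.7 CPM in proliferating cells (51.1 to 71.6) and 48.8 CPM in Tfh cells (34.4 to 67.3), whose intervals overlap, and lowest at 13.8 CPM in naive cells (11.8 to 16.1). Slc17a9 was highest in naive cells, at 33.5 CPM (30.3 to 36.9), and lowest at 9.23 CPM in Tfh cells (3.71 to 19.02). Slc29a3, a nucleoside carrier of lysosomes, lay between 9.41 and 23.8 CPM in all gates.

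Gates of under 200 cells were described by level only, summed over hashtags. In Tfh cells Slc9a9 was at 67.3 CPM (50.1 to 88.4), Slc22a15 at 52.8 CPM (37.7 to 71.8) and Slc41a1 at 50.1 CPM (35.5 to 68.8), each above its level in the other gates, although the interval of Slc9a9 overlaps that of NK-receptor cells (50.9 CPM). Haemoglobin genes summed to 4493 CPM in the Tfh gate, with 95.2% of their UMIs in 1 cell of hashtag 5, against 311 CPM in Th1 and 715 CPM in naive cells; the part of this in the levels was not tested. In NK-receptor cells Slc16a6 was at 57.7 CPM (39.97 to 80.6), and the iron carrier Slc11a2 at 30.6 CPM (18.1 to 48.3), against 8.21 CPM (6.34 to 10.5) in ST2 Treg. Slc38a2 was lowest in Tfh cells, at 224 CPM (192 to 260.5), and next in naive cells, at 268 CPM (259 to 278), with intervals that overlap. Most Tfh cells were of hashtags 5 and 6 (114 and 50 of 193), in which Slc38a2 was also low in other gates.

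Levels were then compared between hashtags within 1 gate, among members at 30 CPM or more in at least 1 hashtag. Members with a range of at least 2-fold and non-overlapping counting intervals numbered 7 of 36 in Th1 cells (19.4%, beside 11.6% of all genes), 5 of 30 in naive cells (16.7% beside 9.46%), 3 of 42 in ST2 Treg (7.14% beside 15.2%), 3 of 47 in other Foxp3 Treg (6.38% beside 8.14%) and 7 of 35 in T cells of no gate (a share of 20%, beside 10.8%). No member did so in Tfh cells (0.851% of all genes) or in proliferating cells (1.58%), where only 2 hashtags each could be compared. What tissue, genotype or time these differences follow cannot be told apart.

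Slc38a2 was at 535, 623, 517, 553, 304 and 251 CPM in Th1 cells of hashtags 1 to 6, at 382, 467, 377, 341, 254 and 233 CPM in naive cells and at 531, 517, 447, 505, 264 and 246 CPM in T cells of no gate. Hashtags 5 and 6 were the lowest in each of the 3 gates, and in other Foxp3 Treg they were again lowest, at 234 and 173 CPM against 536 CPM in hashtag 1. Slc4a7 was at 87.2, 91.0, 62.6, 62.3, 24.3 and 21.5 CPM in naive cells and at 87.3, 78.8, 97.2, 76.4, 51.9 and 42.9 CPM in Th1 cells. Hashtags 5 and 6 were again lowest in both, with the wider gap in naive cells. Both genes were picked for their range. In T cells of no gate hashtag 6 was the lowest for 8 of 20 members at 30 CPM or more (40%, beside 33.3% of all genes), and the shares in Th1 and naive cells are given above.

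Slc3a2 was at 204, 206, 176, 158, 90.4 and 123 CPM in Th1 cells, but in naive cells, at 129.9, 75.2, 74.5, 94.5, 80.9 and 80.1 CPM, only hashtag 1 stood higher. Slc7a1, the arginine and lysine carrier, was at 23.5, 38.2, 25.9, 29.9, 12.5 and 7.79 CPM in Th1 cells, and Slc1a5 at 74.0, 59.3, 47.9, 48.4, 37.9 and 36.3 CPM in naive cells. Both had their lowest values in hashtags 5 and 6. Another order was seen for Slc38a9, the lysosomal arginine sensor of mTORC1, which was at 28.4, 9.85, 23.5, 34.9, 35.3 and 33.1 CPM in Th1 cells, lowest in hashtag 2. The sum of the early response genes was likewise lowest in hashtags 5 and 6, as given above, and its part was not tested.

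**Figure D5:**
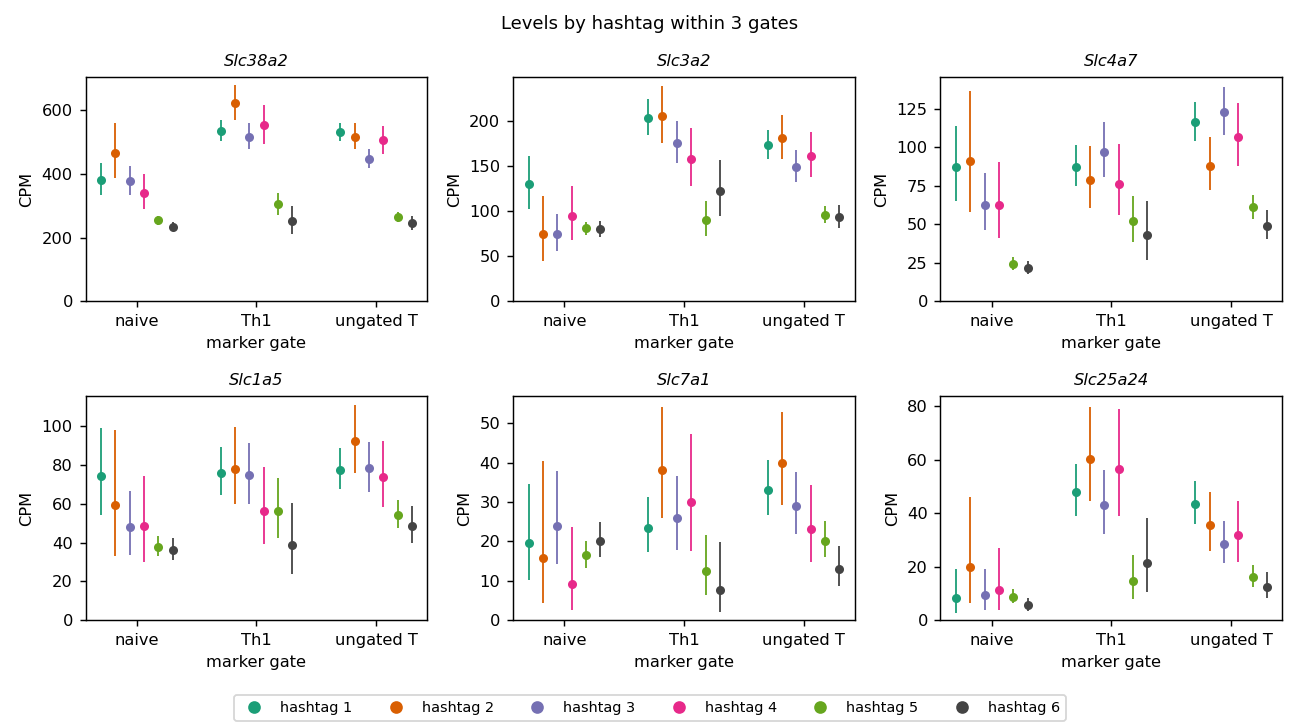
Levels in CPM of 6 members in naive, Th1 and ungated T cells, 1 point per hashtag with exact 95% Poisson bars. Slc38a2 in hashtags 5 and 6 lies between 233 and 304 CPM in the 3 gates, below the other hashtags.

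Among mitochondrial carriers, Slc25a24 ranged from 14.5 CPM in hashtag 5 to 60.4 CPM in hashtag 2 in Th1 cells, and from 12.5 to 43.3 CPM in T cells of no gate. Slc25a28, a mitochondrial iron carrier, was at 12.5 CPM in Th1 cells of hashtag 5 and at 24.9 to 35.9 CPM in the other 5. Slc16a6 was at 47.5, 18.96, 6.88 and 9.63 CPM in other Foxp3 Treg of hashtags 1, 3, 5 and 6. In ST2 Treg the 3 members past 2-fold (Slc2a4rg-ps, Slc9a8 and Slc25a45) were all highest in hashtag 5, at 34.5 to 42.2 CPM, where the gate held 69 cells that stood apart in Areg.

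Other genes of the pathways were read with the same rule. Of 23 genes of nutrient sensing and the amino acid response, 18 reached 10 CPM; 2 were called higher in ST2 Treg than in naive cells, the lysosomal mTORC1 anchor subunit Lamtor4 (median log2 ratio 1.09) and the hypoxia factor Hif1a (1.18), and none lower. Hif1a was also called higher in other Foxp3 Treg (1.28), and none of the 18 was called in the other 4 comparisons. Over all genes the rule called 7.01% higher in ST2 Treg and 6.66% in other Foxp3 Treg, each against naive cells. So 2 and 1 of 18 are no result about the list. Of 7 genes of metal handling, the metallothioneins Mt1 (2.18) and Mt2 (2.70), which bind zinc and copper, and the transferrin receptor Tfrc (1.09) were called higher in ST2 Treg than in naive cells. Mt1 (2.18) and Mt2 (2.48) were also called against Th1 cells, and both in other Foxp3 Treg against naive cells (2.17 and 2.51). These are 3, 2 and 2 of the 7 genes, beside 7.01%, 2.07% and 6.66% of all genes. The list is short and was not tested as a set. Of the partner chains of monocarboxylate carriers, neither Bsg nor Emb was called in any comparison.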

How the data were processed

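Expression and hashtag libraries of 1 pool of CD4 T cells were analysed. The authors deposited unnormalised UMI counts for each gene in called cells, and counts for each hashtag. Cell Ranger 6.0, mm10 and Seurat 3 stand in the submitters' processing notes, but cellranger 4.0.0 in the matrix header; the conflict was not settled. Of the barcodes, HTODemux at quantile 0.99 (R 4.3.3 with Seurat 5.3.0) made 14879 singlets and 5804 doublets and left 2269 without a call; pairs with the same hashtag are not seen. T cells needed at least 2 UMIs of T cell receptor genes and under 2 of other cell types' genes, and gates were fixed marker genes taken in a set order. UMIs were summed per gate and hashtag (44967324 in all) and scaled to CPM (pandas 2.3.3, scipy 1.17.1 and numpy 2.4.6 under Python 3.11.15). Intervals are exact Poisson or, for ratios, exact binomial, at 95%, and cover counting error only. Both libraries of the series were used. The scripts were tested on simulated counts. Promoters are from RefSeq; 96 of the 97 symbols matched the reference names.

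The genes named are up to 12 called per direction and comparison, the leading gene of each substrate group in T cells, and up to 8 members per gate with the widest range over hashtags; others were named after their values were seen. Not every gene that meets these rules is reported here; counts and sums cover all of them. The members, gates and lists were chosen with earlier results of these data known. The early response list (Fos, Fosb, Jun, Junb, Jund, Egr1, Atf3, Dusp1, Hspa1a, Hspa1b, Ier2, Zfp36) was added after the data were seen. Alternatives concerned the hashtag call, cell filter, gates, depth, scaling, level filter, fold and single hashtags.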

Additional observations from a re-analysis of the deposited data

Results flagged for a closer look

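The ratio of Slc16a6 between Th1 and naive cells in hashtag 2 stood apart from those of the other 5 hashtags. Its log2 ratio was 4.34, the nearest other was 1.77, and the gap made up 0.778 of the whole range, above Dixon's critical value for 6 values. The naive cells of this hashtag, 79 in all, had no Slc16a6 UMI, so the ratio depends on the 0.5 UMIs added. Against the 11.9 CPM that a count of 0 allows, the Th1 value was 3.32 times as high, with its own counting error left out. In all, 18 sets of ratios were tested in this way, and chance alone gives about 1 in 20.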

How the results depend on the processing

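Of 305 values of the named ratios under the alternatives, 244 moved by no more than 1 SD over hashtags, 57 by more and 4 reversed. The SD is that of each ratio itself, so a ratio that varies widely over hashtags can move far and still count among the 244. Of 199 ratios between hashtags, 189 stayed within their counting interval and 10 did not. The reversals were Slc35b4 in ST2 against other Foxp3 Treg without doublet removal (-0.15) and, among proliferating cells of 2000 to 6000 UMIs with hashtags pooled (too few cells to keep them apart; median over all genes 0.23), Slc39a13 (0.20), Slc15a2 (0.0108) and Slc9a9 (0.33). Of 197 counts of members, 112 stayed within 1.5 times and 85 did not; beyond fewer genes tested (20 CPM) or more (1 CPM) and a lower fold (1.5), the cause was not tested. The share of all genes called was not computed under these alternatives, so their counts cannot be set against a background. They show only how the members' counts move, and at 20 CPM and 1 CPM the number of members also changed. Every ratio was taken within a hashtag unless pooled. No paired analysis was possible because the hashtags carry no replicate numbers that could pair samples across the study's groups. For 11 ratios between hashtags, 1 more marker per gate left under 50 cells.

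Without doublet removal, members called lower in other Foxp3 Treg against naive were 0, ST2 against other Treg higher 0, ST2 against Th1 lower 0, and proliferating lower 1; members past 2-fold between hashtags were 5 in ST2, 4 in Th1, 1 in naive, 6 in other Treg, 6 in proliferating and 4 in ungated cells. With the top tag at 3 times the second, these were 0 (other Treg lower), 1 (ST2 against other Treg higher), 0 (ST2 against Th1 lower), and between hashtags 5 in ST2 and 2 in proliferating cells. With 1000 genes and 5% mitochondrial UMIs, other Treg against naive had 10 higher and 3 lower, ST2 against other Treg 6 higher and 5 lower, ST2 against Th1 0 lower, and naive cells 3 between hashtags. With 1 more marker per gate, other Treg had 9 higher and 2 lower, ST2 against naive 4 lower, ST2 against other Treg 6 higher and 3 lower, ST2 against Th1 2 higher and Th1 against naive 1 lower; between hashtags 0 members were left in ST2, 1 in Th1 and 3 in naive cells. In cells of 2000 to 6000 UMIs, other Treg had 12 higher and 4 lower, proliferating cells 10 higher, ST2 against other Treg 4 higher and 6 lower, ST2 against Th1 1 lower, and naive cells 3 between hashtags. With median-of-ratios scaling, other Treg had 2 lower, ST2 against Th1 1 higher, Th1 against naive 2 lower, and naive cells 2 between hashtags.

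At 20 CPM, members called higher were 1 in other Treg, 1 in proliferating cells, 4 in ST2 against naive and 0 in ST2 against other Treg. At 1 CPM, they were 31 higher and 2 lower in other Treg, 23 and 16 in proliferating cells, 18 and 2 in ST2 against naive, 12 lower in ST2 against other Treg and 4 higher in ST2 against Th1. At 1.5-fold they were 13 and 2 in other Treg, 8 and 18 in proliferating cells, 16 and 4 in ST2 against naive, 4 and 4 in ST2 against other Treg, 4 higher in ST2 against Th1, and 8 and 1 in Th1 against naive. With each hashtag left out in turn, higher and lower counts were 6 to 9 and 0 to 2 (2 without hashtag 5) for ST2 against naive, 0 to 1 and 0 (without hashtag 2) to 3 for ST2 against Th1, 3 to 4 and 0 to 1 for Th1 against naive, 5 to 8 and 0 to 3 for other Treg against naive, 3 to 4 and 1 to 4 for ST2 against other Treg, and 3 to 4 and 3 to 5 for proliferating cells, which then had under 2 hashtags and were pooled.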
